A study of Mus musculus with 17 samples.

Results

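The vascular endothelium of the kidney was described through 10 genes, taken as the rows of the gene table whose symbol was Pecam1, Cdh5, Kdr, Flt1, Tek, Ehd3, Emcn, Nos3, Plvap or Eng. These were 10 of the 22561 genes in the table. Whole-kidney RNA gave 1 library per mouse. Ctrl comprised 5 C57BL/6 mice, Case comprised 6 saline-treated db/db mice, and Dapa comprised 6 db/db mice on dapagliflozin. All mice were male and 8 weeks old at the start of the 6 weeks of treatment. Dapagliflozin, which blocks SGLT2, the glucose carrier of the proximal tubule, was given by gavage once a day at 1 mg/kg, and the Ctrl and Case mice received saline. The Case and Dapa mice shared the genotype BKS.Cg-Dock7m +/+ Leprdb/J, which lacks a working leptin receptor, and the Ctrl mice were of another strain. Diabetes and strain therefore cannot be told apart in any comparison with Ctrl.

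Endothelial cells line every vessel of the kidney, from the arteries to the fenestrated loops of the glomerulus and the peritubular capillaries around the tubules. They hold together through Pecam1 and VE-cadherin, take survival signals from VEGF made largely by podocytes and tubules and from angiopoietin made by mural cells, and release nitric oxide. In diabetic kidney disease the glomerular endothelium is one of the layers of the filtration barrier that is known to be injured.

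All 10 genes were detected in every library, with 64 counts (Nos3) to 2213 counts (Kdr) in a library, and all 10 were tested in each comparison. The libraries held 13039535 to 17779635 counts in genes, of which 17.9% to 27.6% were mitochondrial. Levels are given as FPKM, fragments per length of transcript scaled to the library total, which allows genes to be set side by side. Fold changes are on the log2 scale from edgeR's quasi-likelihood test on counts, and q is its p-value with Benjamini-Hochberg adjustment over all genes tested, called at q under 0.05. In bulk tissue, fewer endothelial cells and less RNA per endothelial cell cannot be told apart.

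A difference between libraries in the deposited values is given before the results. For the 3 genes that the table lists over 2 lines, FPKM followed the counts within 0.05% in 9 libraries but not in 8, namely Ctrl 1 to 4, Case 1 and Dapa 10 to 12. Ctrl 2 deviated by 0.124% and the other 7 by 3.08% to 27.5%. The 8 are called mismatching libraries below, a name for this feature of the values, since no label names a batch. They did not fall evenly over the groups, and within Dapa they separated mice 10, 11 and 12 from mice 7, 8 and 9. The 3 mismatching Dapa libraries also had the lowest totals of all 17, at 14158176, 13555711 and 13039535 counts. In addition, Ctrl 3 held fat-cell RNA, with a summed FPKM of 69.8 over 6 adipocyte markers against 0 to 0.183 in the other Ctrl mice and 0 to 0.408 in Case. The same sum was 10.1 in Dapa 7, 10.4 in Dapa 11 and 2.06 in Dapa 10, and at most 0.166 in the other Dapa mice. Case 3 stood above the other Case mice in summed FPKM of macrophage markers (190 against 26.4 to 53.9), red-cell markers (436 against 56.7 to 194) and platelet markers (3.31 against 0.821 to 1.45), and was the highest Case mouse for Pecam1, Cdh5, Flt1, Nos3 and Plvap. Without Case 3, none of the 10 genes was called in Case over Ctrl or in Dapa over Case, as with it. For the 10 genes, values with and without these libraries are given where a result rests on them. Genes of the other lists are given with all libraries only. In Case over Ctrl 1895 of all genes were called, and 751 when the fit held a term for the 8 mismatching libraries. The leptin receptor gene Lepr was at 0.464 to 1.93 FPKM in Ctrl, 0.659 to 5.40 in Case and 0.417 to 4.85 in Dapa. Since the db allele alters splicing of the receptor, the count of the whole gene does not check the labels.

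The stretches just before the transcription starts of 3 of the genes are shown because these genes carried the results below. Ehd3 was lower relative to Cdh5 in every db/db kidney than in every Ctrl kidney, Eng was the single one of the 10 that was called, and Emcn had the highest log2 fold change both in Dapa over Case and in Dapa over Ctrl. Each stretch is the 250 bases before the RefSeq start, read 5′ to 3′ on the gene's strand, with the letters AGGAAG or their reverse complement CTTCCT in capitals. AGGAAG holds the core that ETS transcription factors, known regulators of endothelial genes, bind.
Ehd3 promoter, GRCm38.p6 chr17:73804591-73804840, plus strand: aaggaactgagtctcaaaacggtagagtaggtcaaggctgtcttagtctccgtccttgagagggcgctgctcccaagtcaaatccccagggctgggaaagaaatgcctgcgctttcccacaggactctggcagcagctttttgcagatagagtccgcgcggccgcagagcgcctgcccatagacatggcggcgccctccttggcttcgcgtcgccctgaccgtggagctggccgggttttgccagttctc
Eng promoter, GRCm38.p6 chr2:32646345-32646594, plus strand: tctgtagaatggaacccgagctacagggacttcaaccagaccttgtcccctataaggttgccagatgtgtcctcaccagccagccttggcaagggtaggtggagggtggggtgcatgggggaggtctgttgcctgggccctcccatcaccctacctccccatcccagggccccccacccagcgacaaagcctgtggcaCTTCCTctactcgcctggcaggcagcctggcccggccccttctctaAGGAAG
Emcn promoter, GRCm38.p6 chr3:137340828-137341077, plus strand: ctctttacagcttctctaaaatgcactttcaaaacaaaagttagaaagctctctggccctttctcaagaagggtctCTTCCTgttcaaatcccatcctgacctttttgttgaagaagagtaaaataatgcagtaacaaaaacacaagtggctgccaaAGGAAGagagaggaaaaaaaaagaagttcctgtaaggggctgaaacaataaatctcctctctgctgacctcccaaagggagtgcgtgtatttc
A RefSeq promoter was found for 6 of the 10 genes (Eng, Emcn, Tek, Kdr, Flt1 and Ehd3). AGGAAG stood on either strand in 3 of these 6 (Eng, Emcn and Flt1) and in 29.5% of all 32851 promoters of that length. The related letters CGGAAG (13.6% of all promoters) and the GATA letters AGATAA (9.99%) stood in none of the 6 windows. A match to these letters is a description and not a binding site.

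In healthy kidneys the 10 genes spanned a wide range of levels. Plvap was highest in Ctrl at 35.9 ± 10.2 FPKM (mean ± SD, n = 5), followed by Ehd3 at 14.8 ± 3.35 and Kdr at 11.4 ± 1.92, and each of these stood above the next in 5 of 5 mice. Eng (7.08 ± 1.60), Emcn (6.60 ± 1.53), Pecam1 (6.08 ± 1.19), Cdh5 (5.74 ± 1.34), Tek (5.65 ± 1.5) and Flt1 (5.62 ± 1.65) lay within each other's spread, and their neighbours in this order changed place in 1 or 2 of the 5 mice. Nos3 was lowest at 1.07 ± 0.182 FPKM and stood below Flt1 in every mouse. The same 4 genes, Plvap, Ehd3, Kdr and Eng, led the order in Case and in Dapa, and Nos3 closed it. Ehd3 stood above Kdr in 5 of 6 Case mice and 4 of 6 Dapa mice.

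**Figure D1:**
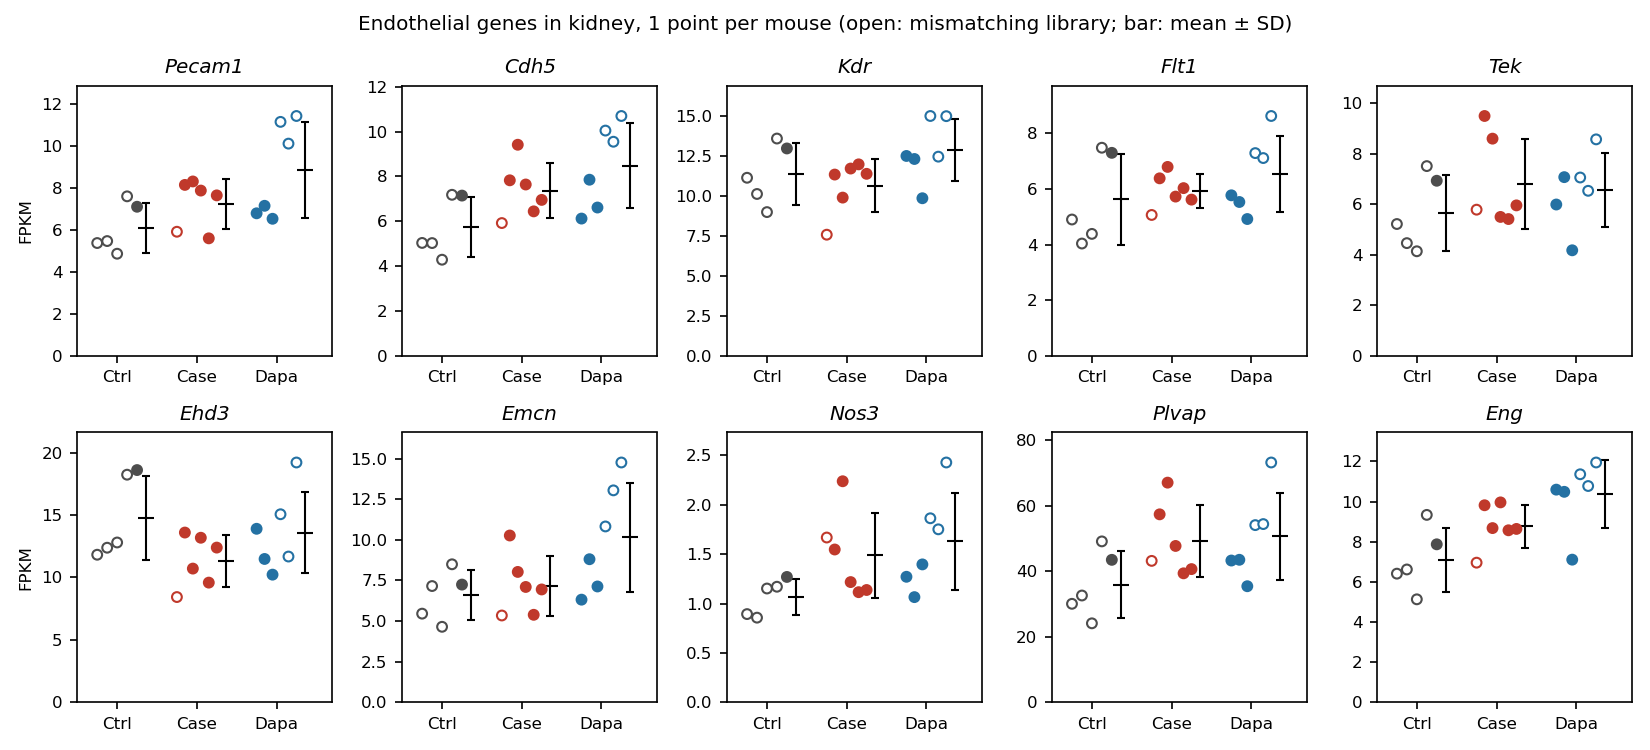
FPKM (y axis, linear, from 0) of the 10 endothelial genes in each of 17 mice by group (x axis), with open points for the 8 mismatching libraries and a bar for mean ± SD. Ctrl 4 and 5 stood above Ctrl 1 to 3 in most genes, and in 7 of the 10 the 3 open Dapa points stood above the 3 filled ones.

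In diabetic kidneys, none of the 10 endothelial genes was called against Ctrl (0 of 10), against 13% of all 14582 genes tested. Their median log2 fold change was 0.18, against 0.03 over all genes, and 8 of 10 were above 0, against 54.3% of all genes. At an unadjusted p under 0.05, 2 of 10 passed (Ehd3 lower, Plvap higher), against 28.7% of all genes. Ehd3 was the gene with the lowest fold change, and DESeq2 (q = 0.0413) and edgeR's exact test (q = 0.0490) called it lower. With dapagliflozin, again none was called against Case, where 0% of all 14573 genes tested passed and the smallest q of any gene was 0.173; 9 of 10 were above 0 (48.8% of all genes), with a median of 0.20 against -0.01. DESeq2 called 208 genes and the exact test 129 there, none of them among the 10, and at an unadjusted p under 0.05 Emcn alone passed, against 12.9% of all genes. Among matching libraries alone (3 Dapa, 5 Case), 8 of 10 were instead below 0 in Dapa over Case, as given below. In Dapa over Ctrl 1 of 10 was called (Eng, higher), against 29.1% of all 14647 genes and 14.2% called higher. There 9 of 10 were above 0, against 51.4% of all genes, with a median of 0.42 against 0.02, and 5 of 10 passed at an unadjusted p under 0.05, against 41.1%. No gene of the 10 had groups without overlap in FPKM in any of the 3 comparisons, against 8.43% of all genes in Case over Ctrl, 0.48% in Dapa over Case and 14.5% in Dapa over Ctrl. These comparisons share mice, so their values stand side by side and are not independent of each other.

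**Figure D2:**
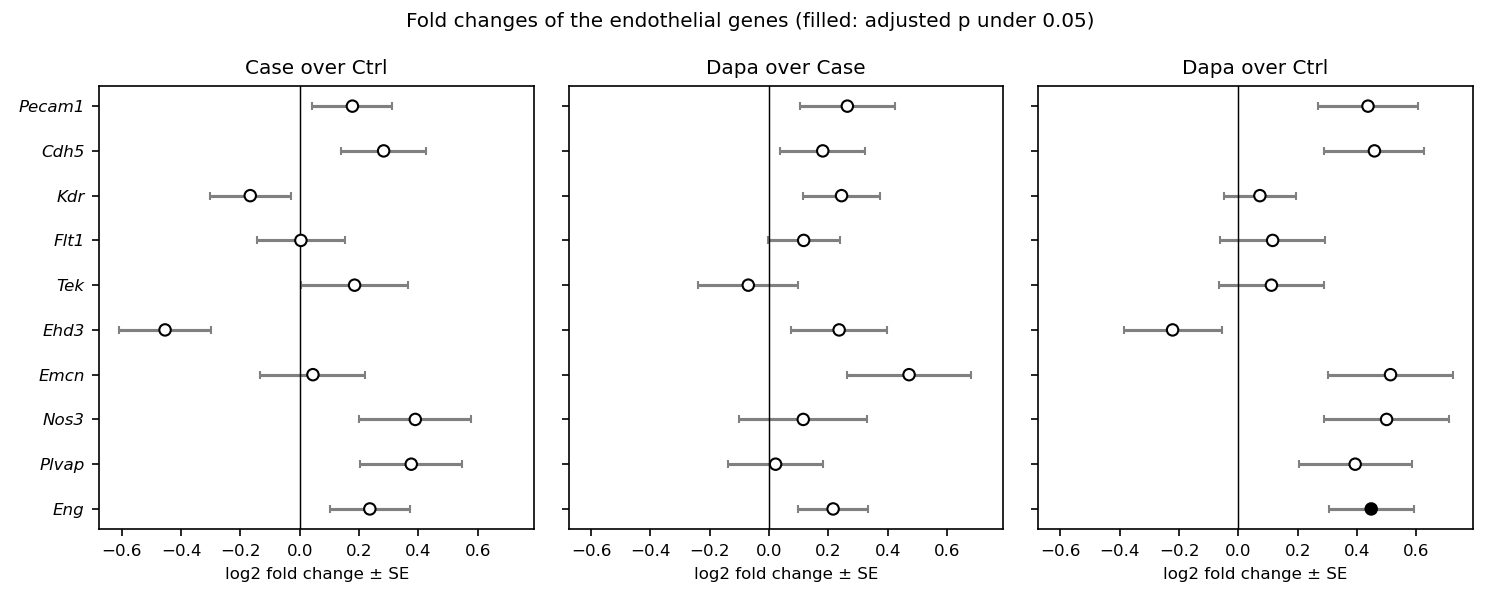
Log2 fold change ± SE (x axis) of each endothelial gene (y axis) in Case over Ctrl, Dapa over Case and Dapa over Ctrl, filled where q was under 0.05. Eng in Dapa over Ctrl (0.45 ± 0.14) is the single filled point, and Ehd3 has the lowest value in Case over Ctrl (-0.45 ± 0.16).

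The junction genes Pecam1 and Cdh5 were the most alike of the 10. Pecam1 (ENSMUSG00000020717, mm10 chr11:106654217-106750628, minus strand) encodes CD31, an adhesion molecule at endothelial contacts. Pecam1 stood at 5.37, 5.46, 4.86, 7.59 and 7.10 FPKM in Ctrl 1 to 5. Pecam1 in Case ran from 5.59 to 8.30 with a median of 7.75, and in Dapa from 6.52 to 11.4 with a median of 8.62. Ctrl 4 and 5 were high within Ctrl, and 4 of 6 Case mice and 3 of 6 Dapa mice lay above all Ctrl mice. Pecam1 had a log2 fold change of 0.18 (SE 0.14, q = 0.416) in Case over Ctrl, 0.26 (SE 0.16, q = 0.491) in Dapa over Case and 0.44 (SE 0.17, q = 0.0671) in Dapa over Ctrl, where it was called in 10 of 25 alternatives, with q from 0.00411 to 0.716. The 3 Dapa mice above Ctrl were the mismatching ones, at 11.1, 10.1 and 11.4 FPKM, whereas Dapa 7, 8 and 9 stood at 6.78, 7.14 and 6.52, within the Ctrl range.

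Cdh5 (ENSMUSG00000031871, chr8:104101625-104144502, plus strand) encodes VE-cadherin, the adherens junction protein that marks endothelium of all vessels. Cdh5 stood at 5.04, 5.03, 4.29, 7.18 and 7.15 FPKM in Ctrl 1 to 5. Cdh5 in Case ran from 5.92 to 9.41 with a median of 7.30, and in Dapa from 6.12 to 10.7 with a median of 8.70. The groups overlapped, with 3 of 6 Case mice and 4 of 6 Dapa mice above all Ctrl mice. Cdh5 had a log2 fold change of 0.28 (SE 0.14, q = 0.214) in Case over Ctrl, 0.18 (SE 0.14, q = 0.609) in Dapa over Case and 0.46 (SE 0.17, q = 0.0562) in Dapa over Ctrl, where it was called in 15 of 25 alternatives, with q from 0.00659 to 0.529. Again Dapa 10 to 12 (9.55 to 10.7) lay apart from Dapa 7 to 9 (6.12 to 7.86). Cdh5 overlaps an antisense gene, and the strand setting of the counting is not given in the sources used here, so reads of the pair cannot be told apart.

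The VEGF receptors Kdr and Flt1 were not called in any of the 3 comparisons. Kdr (ENSMUSG00000062960, chr5:75932827-75978458, minus strand) encodes VEGFR2, the main signalling receptor for VEGF-A. Kdr stood at 11.1, 10.1, 8.98, 13.6 and 12.96 FPKM in Ctrl 1 to 5. Kdr in Case ran from 7.57 to 12.0 with a median of 11.4, and in Dapa from 9.85 to 15.0 with a median of 12.5. Case 1 was the single Case mouse below all Ctrl mice, and 2 Dapa mice stood above them. Kdr had a log2 fold change of -0.17 (SE 0.14, q = 0.454) in Case over Ctrl, 0.24 (SE 0.13, q = 0.430) in Dapa over Case, where 5 of 6 Dapa mice lay above every Case mouse, and 0.07 (SE 0.12, q = 0.684) in Dapa over Ctrl. With a term for the 8 mismatching libraries, Kdr was at -0.43 in Case over Ctrl (q = 0.129).

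Flt1 (ENSMUSG00000029648, chr5:147561604-147726011, minus strand) encodes VEGFR1, which binds VEGF-A tightly and, in its soluble form, holds it away from VEGFR2. Flt1 stood at 4.90, 4.04, 4.39, 7.48 and 7.30 FPKM in Ctrl 1 to 5. Flt1 in Case ran from 5.07 to 6.79 with a median of 5.88, and in Dapa from 4.92 to 8.62 with a median of 6.44. The Case mice all lay between the 3 low and the 2 high Ctrl mice. Flt1 had a log2 fold change of 0.00 (SE 0.15, q = 0.991) in Case over Ctrl, 0.12 (SE 0.12, q = 0.711) in Dapa over Case and 0.12 (SE 0.18, q = 0.655) in Dapa over Ctrl. The table gives the gene as a whole, so soluble and membrane forms of Flt1 were not separated.

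Tek (ENSMUSG00000006386, chr4:94739289-94874976, plus strand) encodes TIE2, the receptor of the angiopoietins. Tek stood at 5.22, 4.46, 4.14, 7.51 and 6.93 FPKM in Ctrl 1 to 5. Tek in Case ran from 5.41 to 9.49 with a median of 5.87, and in Dapa from 4.18 to 8.56 with a median of 6.79. Case 2 and 3 (9.49 and 8.59) stood apart from the other Case mice, which were all within the Ctrl range. Tek was the only one of the 10 below 0 in Dapa over Case, with a log2 fold change of -0.07 (SE 0.17, q = 0.888), and it had 0.18 (SE 0.18, q = 0.543) in Case over Ctrl and 0.11 (SE 0.18, q = 0.668) in Dapa over Ctrl.

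Eng (ENSMUSG00000026814, chr2:32646595-32682669, plus strand) encodes endoglin, a co-receptor for BMP9 and TGF-beta on endothelium, and its promoter is printed above. Eng stood at 6.41, 6.62, 5.13, 9.34 and 7.87 FPKM in Ctrl 1 to 5. Eng in Case ran from 6.96 to 9.96 with a median of 8.66, and in Dapa from 7.11 to 11.9 with a median of 10.7. Of the Dapa mice 5 of 6, and of the Case mice 2 of 6, lay above the highest Ctrl value, and Dapa 9 was the exception in its group. Eng rose in Dapa over Ctrl with a log2 fold change of 0.45 (SE 0.14, q = 0.0330), and had 0.24 (SE 0.13, q = 0.266) in Case over Ctrl and 0.22 (SE 0.12, q = 0.442) in Dapa over Case. The call was lost when any of Ctrl 1 (q = 0.0635), Ctrl 2 (q = 0.0647), Ctrl 3 (q = 0.0658), Dapa 10 (q = 0.0668), Dapa 11 (q = 0.0549) or Dapa 12 (q = 0.0542) was left out. Without the 3 mismatching Dapa libraries it was 0.33 (q = 0.25). Unlike Pecam1, Eng was also high in Dapa 7 and 8, at 10.6 and 10.5 FPKM. Fpgs lies on the opposite strand at the locus of Eng, with the same limit on strand.

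Nos3 (ENSMUSG00000028978, chr5:24364810-24384474, plus strand) encodes endothelial nitric oxide synthase, the source of vasodilating nitric oxide. Nos3 stood at 0.894, 0.858, 1.15, 1.17 and 1.27 FPKM in Ctrl 1 to 5. Nos3 in Case ran from 1.115 to 2.24 with a median of 1.38, and in Dapa from 1.07 to 2.43 with a median of 1.57. The upper end was set by Case 3 and Dapa 12, and the groups overlapped at the lower end. Nos3 had a log2 fold change of 0.39 (SE 0.19, q = 0.194) in Case over Ctrl, 0.12 (SE 0.22, q = 0.852) in Dapa over Case and 0.50 (SE 0.21, q = 0.0895) in Dapa over Ctrl. With 64 to 166 counts per library Nos3 had the lowest counts of the 10, and Atg9b and Gm15587 overlap it on the opposite strand.

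Plvap and Emcn mark fenestrated and capillary endothelium. Plvap (ENSMUSG00000034845, chr8:71497754-71511769, minus strand) encodes the protein of the diaphragms that close the fenestrae of peritubular capillaries. Plvap stood at 30.1, 32.6, 24.1, 49.1 and 43.5 FPKM in Ctrl 1 to 5. Plvap in Case ran from 39.4 to 67.0 with a median of 45.4, and in Dapa from 35.4 to 73.2 with a median of 48.8. Every Case and Dapa mouse lay above Ctrl 1 to 3, while Ctrl 4 and 5 lay within the range of both. Plvap had a log2 fold change of 0.38 (SE 0.17, q = 0.167) in Case over Ctrl, 0.02 (SE 0.16, q = 0.966) in Dapa over Case and 0.39 (SE 0.19, q = 0.137) in Dapa over Ctrl. Gtpbp3 overlaps Plvap on the opposite strand.

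Emcn (ENSMUSG00000054690, chr3:137341067-137432185, plus strand) encodes endomucin, a sialomucin on capillary and venous endothelium. Emcn stood at 5.46, 7.16, 4.65, 8.50 and 7.25 FPKM in Ctrl 1 to 5. Emcn in Case ran from 5.35 to 10.3 with a median of 7.03, and in Dapa from 6.32 to 14.8 with a median of 9.82. Case lay close to Ctrl, and 4 of 6 Dapa mice lay above all Ctrl mice. Emcn had a log2 fold change of 0.04 (SE 0.18, q = 0.900) in Case over Ctrl, 0.47 (SE 0.21, q = 0.367) in Dapa over Case and 0.51 (SE 0.21, q = 0.0825) in Dapa over Ctrl. The 3 mice above every Case mouse were Dapa 10, 11 and 12, at 10.8, 13.045 and 14.8 FPKM, and among matching libraries alone (3 Dapa, 5 Case) the log2 fold change in Dapa over Case was -0.03 (q = 0.992).

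Ehd3 had the lowest log2 fold change of the 10 genes in Case over Ctrl, and it was not called. Ehd3 (ENSMUSG00000024065, chr17:73804841-73832093, plus strand) encodes an endocytic trafficking protein that in the kidney marks glomerular endothelium. Ehd3 stood at 11.8, 12.4, 12.8, 18.2 and 18.6 FPKM in Ctrl 1 to 5. Ehd3 in Case ran from 8.43 to 13.6 with a median of 11.6, and in Dapa from 10.2 to 19.2 with a median of 12.8. In each db/db group 3 of 6 mice lay below every Ctrl mouse, and no Case mouse reached Ctrl 4 or 5. Ehd3 had a log2 fold change of -0.45 (SE 0.16, q = 0.0712) in Case over Ctrl, 0.24 (SE 0.16, q = 0.545) in Dapa over Case and -0.22 (SE 0.17, q = 0.335) in Dapa over Ctrl. In Case over Ctrl the value was below 0 in all alternatives run, from -0.74 to -0.35, with q from 0.0273 to 0.160. It was called in 3 of them, namely DESeq2, the exact test and the fit with a term for the 8 mismatching libraries (-0.74, q = 0.0273). With Ctrl 2 taken out of that term it was not called (-0.58, q = 0.0585).

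Within a mouse, Ehd3 was lower relative to Cdh5 in every db/db kidney than in every Ctrl kidney. A ratio of FPKM values within a library does not depend on library size and shows unequal change only. The ratio Ehd3/Cdh5 was 2.35, 2.46, 2.98, 2.54 and 2.602 in Ctrl 1 to 5. In Case it ran from 1.14 to 1.78 with a median of 1.61, and in Dapa from 1.22 to 2.27 with a median of 1.52. Neither db/db group overlapped with Ctrl, and Dapa 7 (2.27) came closest. Among all other genes tested, 4.18% had a ratio to Cdh5 without overlap between Case and Ctrl (3.59% in the lower direction), and 5.67% between Dapa and Ctrl (4.68% lower). The mean log2 difference was -0.75 in Case minus Ctrl (exact two-sided permutation test over mice, p = 0.00216, the smallest possible, adjusted p = 0.0260 over 12 tests) and -0.69 in Dapa minus Ctrl (exact p = 0.00433, adjusted p = 0.0260). Dapa minus Case was 0.07 (exact p = 0.723). The log2 fold changes of the genes themselves in Case over Ctrl were 0.28 for Cdh5 and -0.45 for Ehd3, neither called.

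Only part of this comparison could be made within matching or within mismatching libraries. Among mismatching libraries alone, the log2 difference of Ehd3/Cdh5 was -0.79 between 3 Dapa and 4 Ctrl mice (exact permutation p = 0.0286, the smallest possible), and without the 3 mismatching Dapa libraries it was -0.58 (exact permutation p = 0.0179, the smallest possible). The latter sets 3 matching Dapa mice against 5 Ctrl mice of which 4 are mismatching, so there the group and the mismatch cannot be told apart. The single matching Ctrl mouse had 2.602 and the single mismatching Case mouse 1.42, which leaves no test within matching libraries for Case or Dapa and none within mismatching libraries for Case. Without Ctrl 3, the mouse with fat-cell RNA and the highest ratio, the difference was -0.70 in Case minus Ctrl (exact permutation p = 0.00476, the smallest possible). With another endothelial gene in place of Cdh5, the difference in Case minus Ctrl was -0.63 for Pecam1, -0.28 for Kdr, -0.50 for Flt1, -0.64 for Tek and -0.85 for Plvap, with exact permutation p from 0.00216 to 0.0325. It was thus smallest beside Kdr, the ratio of which to Cdh5 was itself 2.00 ± 0.158 in Ctrl, 1.47 ± 0.281 in Case and 1.55 ± 0.257 in Dapa (mean ± SD). Ehd3/Kdr overlapped between groups, at 1.06 to 1.43 in Ctrl and 0.801 to 1.20 in Case. A lower ratio to Cdh5 was not particular to Ehd3. In Ctrl, Case and Dapa the mean of Flt1/Cdh5 was 0.972, 0.814 and 0.778, and that of Tek/Cdh5 0.980, 0.919 and 0.783. Means of Pecam1/Cdh5 and Eng/Cdh5 were also lower in Case than in Ctrl, and that of Nos3/Cdh5 was higher.

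The other ratios fixed for the comparison did not pass. The ratio Emcn/Cdh5 was 1.16 ± 0.160 in Ctrl, 0.972 ± 0.176 in Case and 1.18 ± 0.155 in Dapa, and the exact permutation p was 0.0823 in Case over Ctrl and 0.0519 in Dapa over Case (adjusted p = 0.247 and 0.208). Without Case 2 the exact permutation p was 0.00794 in Case over Ctrl and 0.00433 in Dapa over Case, and without Dapa 7 it was 0.0433 in Dapa over Case. The ratio Plvap/Cdh5 was 6.20 ± 0.470, 6.66 ± 0.662 and 5.98 ± 0.768 in Ctrl, Case and Dapa, with adjusted exact permutation p from 0.277 to 0.694. The ratio of the VEGF receptors, Flt1/Kdr, was 0.488 ± 0.0703, 0.568 ± 0.0896 and 0.508 ± 0.0541, with the same range of adjusted p.

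**Figure D3:**
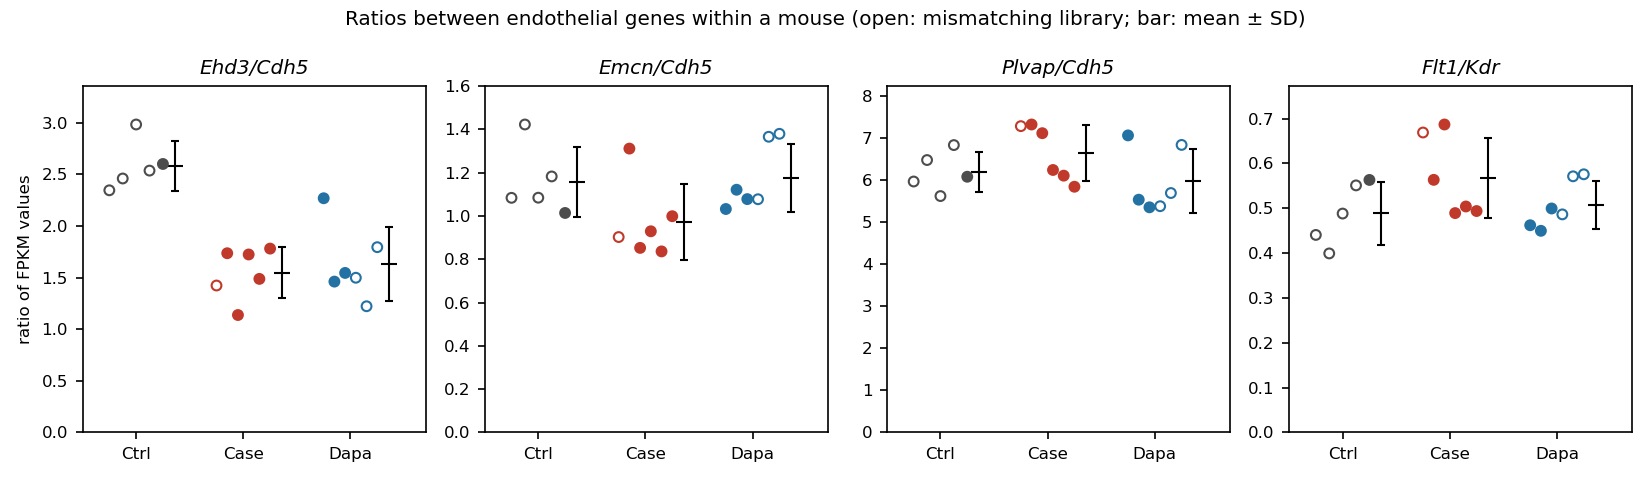
Ratio of FPKM values within a mouse (y axis, from 0) for 4 pairs of endothelial genes by group (x axis), with open points for mismatching libraries and a bar for mean ± SD. For Ehd3/Cdh5 the 5 Ctrl mice sit between 2.35 and 2.98, above all 12 db/db mice, and the other 3 ratios overlap between groups.

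The highest Dapa level of each of the 10 genes was in a mismatching library. In 7 of the 10 genes (Pecam1, Cdh5, Flt1, Emcn, Nos3, Plvap and Eng) Dapa 10 to 12 all stood above Dapa 7 to 9, against 10.1% of all 14647 genes. The other groups went the other way, each with a single mouse in the smaller set. In Ctrl the mean of the 4 mismatching libraries was below Ctrl 5 in each of the 10 genes, as in Cdh5 (5.39 against 7.15 FPKM). Case 1 was below the mean of the 5 matching Case libraries in each gene but Nos3, as in Cdh5 (5.92 against 7.66 FPKM). Among matching libraries alone (3 Dapa, 5 Case), 8 of the 10 genes were below 0 in Dapa over Case, against 51.7% of all genes, from -0.31 (Plvap) to -0.02 (Ehd3), and Kdr and Eng were at 0.02 and 0.03. None of the 10 was called there by edgeR's quasi-likelihood test, where 0% of all 14930 genes were, so this count says nothing about the 10. At an unadjusted p under 0.05 none of the 10 passed, against 5.36% of all genes. Between the 3 mismatching Dapa and the 4 mismatching Ctrl libraries, by contrast, 6 of the 10 rose, against 13.2% of all genes called higher in those libraries. These were Pecam1 (0.78, q = 0.00411), Cdh5 (0.78, q = 0.00659), Emcn (0.87, q = 0.00873), Nos3 (0.86, q = 0.0138), Eng (0.60, q = 0.0245) and Plvap (0.71, q = 0.0320), whereas Ehd3 stood at 0.03 (q = 0.923). This subset was chosen after seeing the data and keeps Dapa 10 to 12. It leaves out Ctrl 5, which was highest or next to highest of the Ctrl mice in each of the 10 genes. Within these 7 libraries the 10 genes had a median r of 0.844 with each other, so the 6 calls are not independent and the share of all genes is no measure for them. Without the 3 mismatching Dapa libraries, none of the 10 was called in Dapa over Ctrl, against 10.5% of all genes in that fit.

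The summed FPKM of 25 other pan-endothelial genes showed the same division, at 149, 148 and 145 in Dapa 7, 8 and 9 and at 193, 183 and 218 in Dapa 10, 11 and 12. Sums of the glomerular, arterial and lymphatic endothelial genes and of the angiopoietin and Tie genes were also higher in each of Dapa 10 to 12 than in Dapa 7 to 9, and sums of the nitric oxide and endoglin pathway lists, to which Ddah1 and Id2 respectively contribute most, were lower. Sums of the venous and peritubular genes, the activation and thrombosis genes and the VEGF ligands and co-receptors overlapped between these mice. Proximal tubule markers were lower too, without overlap, at 1887, 2018 and 1827 FPKM in Dapa 7 to 9 and 1682, 1659 and 1504 in Dapa 10 to 12. Red-cell markers did not divide the mice in this way, with 150, 287 and 110 in Dapa 7 to 9 and 283, 203 and 358 in Dapa 10 to 12. Podocyte markers, which share the glomerulus with Ehd3, stood at 67.9, 54.4 and 71.5 against 66.3, 64.8 and 69.4. Mitochondrial genes took 19.9%, 19.7% and 25.4% of counts in Dapa 7 to 9 and 25.9%, 22.5% and 27.6% in Dapa 10 to 12, and the part of this, of the tubule markers and of depth in the result was not tested.

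The 10 genes went up and down together from mouse to mouse, although not equally in all libraries. With group means removed, all 45 pairs had a positive Pearson's r over the 17 mice, with a median of 0.755, and the median Spearman's rho was 0.745. Removing group means leaves in the division between Dapa 7 to 9 and Dapa 10 to 12, and pairs of other genes were not examined. Pecam1 and Cdh5 were the closest pair (r = 0.933, rho = 0.919, permutation within groups, adjusted p = 0.000225 and 0.00045 over 45 pairs), and Kdr and Nos3 the most distant (r = 0.0902, rho = 0.132, adjusted permutation p = 0.745 and 0.624). Plvap had the highest median r with the other 9 genes (0.847) and Nos3 the lowest (0.558). Leaving out the 2 mice farthest from the median of the first gene gave a median r of 0.712. The values differed between matching and mismatching libraries: within the 7 mismatching libraries of Ctrl and Dapa the median r was 0.844 and all 45 pairs were positive, while within the 8 matching libraries of Case and Dapa it was 0.458, with pairs from -0.73 to 0.846 and 37 of 45 positive.

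**Figure D4:**
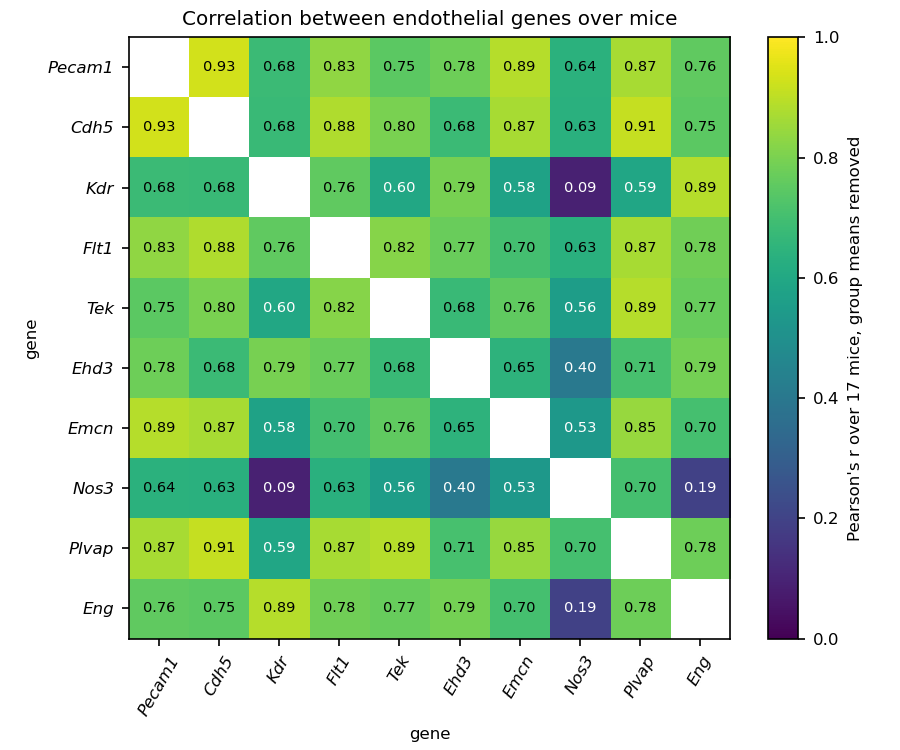
Pearson's r between each pair of the 10 endothelial genes (both axes) over 17 mice with group means removed, on log2(FPKM + 0.1), coloured from 0 to 1. All values are positive, Pecam1 and Cdh5 are highest at 0.933, and the row of Nos3 holds the lowest values.

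Among 11445 other genes with a mean of at least 1 FPKM, the 3 that followed the mean of the 10 most closely over the 17 mice were Itpripl2 (r = 0.956), Zcchc24 (0.936) and Ptprb (0.935). Ptprb encodes VE-PTP, an endothelial phosphatase that acts on TIE2 and VE-cadherin. These values are a description across mice and carry no test.

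The rest of the endothelial programme was read from lists of known genes. Of 25 other pan-endothelial genes, 4 rose in Case over Ctrl and none fell, with a median log2 fold change of 0.26 against 0.03 over all genes. This share called is near the 13% of all genes, which is also the share to set beside the lists that follow, of 3 to 8 genes each. They were the tight junction gene Cldn5 (0.75, q = 0.0395), Tspan7 (0.67, q = 0.00371), Egfl7, a secreted protein of endothelium (0.47, q = 0.0455), and Podxl (0.40, q = 0.0368), which podocytes also express. Among genes tied to glomerular endothelium, 1 of 7 rose, Sost (2.33, q = 0.00216, from 0.170 to 0.909 FPKM), and 1 fell, Mapt (-0.44, q = 0.0236). Unlike Ehd3, 5 of these 7 genes were above 0 in Case over Ctrl, with a median log2 fold change of 0.38, and their summed FPKM had a median of 37.1 in Ctrl and 45.5 in Case. Plat contributed most to these sums, at a mean of 20.8 FPKM in Ctrl and 27.2 in Case, and was not called (0.31, q = 0.150). Medians of the log2 fold change for the lists that follow were 0.18 for 8 arterial, -0.30 for 5 venous and peritubular, 0.76 for 3 lymphatic and 0.87 for 7 activation and thrombosis genes. The arterial Notch ligand Dll4 fell (-0.59, q = 0.0314), 1 of 8 arterial genes, and the natriuretic peptide clearance receptor Npr3 fell (-0.82, q = 0.0202), 1 of 5 venous and peritubular genes. Of 3 lymphatic genes tested 1 rose, Pdpn (0.80, q = 0.0272), which podocytes also make. Von Willebrand factor, Vwf, rose (1.38, q = 0.0466), 1 of 7 activation and thrombosis genes tested, at a level of 0.0860 FPKM in Ctrl and 0.240 in Case.

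Among ligands and partners of the 10 genes, the calls in Case over Ctrl are likewise read beside the 13% of all genes called. Of 7 VEGF ligands and co-receptors tested, Vegfa, the ligand of Kdr and Flt1, fell (-0.24, SE 0.07, q = 0.0389), from 17.6 ± 0.878 to 15.7 ± 0.520 FPKM, and Vegfd rose (0.67, q = 0.0423). None of 4 angiopoietin and Tie genes tested was called, with Ptprb at 0.19 (q = 0.451) and Tie1 at 0.06 (q = 0.824). The angiopoietin genes, named after their values were seen, were at 1.36 for Angpt2 (q = 0.0514, mean 1.21 FPKM in Ctrl and 3.29 in Case) and -0.21 for Angpt1 (q = 0.484). Of 12 genes tested in the nitric oxide pathway of Nos3, 1 rose and 1 fell, and 9 were above 0, with a median log2 fold change of 0.33. The gene that fell was Ddah1 (-0.77, q = 0.0109), which clears an inhibitor of nitric oxide synthase and is also expressed by tubules. Of 12 genes of the endoglin and BMP9/ALK1 pathway, 1 fell, the target Id2 (-0.69, q = 0.0127). Id2 had a mean of 312 FPKM in Ctrl, against 7.08 for Eng, and which kidney cells held its RNA was not tested.

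In Dapa over Case no gene of these lists was called, and 0% of all genes were, so this count says nothing about the lists. The most abundant genes of the lists there were Podxl (0.07, q = 0.839), Adgrl4 (0.13, q = 0.764), Nrp1 (-0.24, q = 0.558), Vegfa (0.00, q = 0.985), Ptprb (0.24, q = 0.465), Tie1 (0.09, q = 0.846), Ddah1 (-0.12, q = 0.800), Nosip (-0.13, q = 0.675), Id2 (-0.01, q = 0.989) and Id3 (0.21, q = 0.651). In the lists of vessel types they were Plat (0.26, q = 0.647), Mapt (0.04, q = 0.892), Fbln5 (-0.53, q = 0.438), Efnb2 (0.06, q = 0.900), Igfbp3 (-0.52, q = 0.367), Nr2f2 (-0.09, q = 0.726), Pdpn (-0.21, q = 0.728), Flt4 (-0.10, q = 0.831), Icam1 (-0.17, q = 0.779) and Thbd (-0.32, q = 0.480). Their values lay on both sides of 0.

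Markers of other cell types are given beside the same 13% of all genes called in Case over Ctrl, and only for red cells were all markers called. All 5 red-cell markers rose, Alas2 most (2.52, q = 0.0112), with summed FPKM of 18.2 to 69.6 in Ctrl, 56.7 to 436 in Case and 110 to 358 in Dapa. Podocyte markers rose in 2 of 8 (Nphs1, 0.59, q = 0.00361, and Cdkn1c, 0.90, q = 0.00688) and fell in none, with sums of 64.8 to 73.1 in Ctrl and 65.8 to 85.7 in Case in FPKM. Ehd3, the glomerular endothelial gene, was not called (-0.45, q = 0.0712). Of 9 mural and mesangial markers 1 rose (Rgs5, 0.81, q = 0.0107), with sums of 71.5 to 144 in Ctrl and 104 to 242 in Case. Of 8 macrophage markers 1 rose (Cd14, 1.41, q = 0.0284), with sums of 24.9 to 43.2 in Ctrl and 26.4 to 190 in Case, the last in Case 3 alone. Proximal tubule markers fell in 2 of 7 (Lrp2, -0.98, q = 0.00407, and Slc22a6, -0.84, q = 0.0249), and distal and collecting duct markers rose in 2 of 7 (Aqp2, 0.78, q = 0.0395, and Atp6v1g3, 0.51, q = 0.0249). Platelet markers summed to 0.725 to 1.11 FPKM in Ctrl and 0.821 to 3.31 in Case, and the 1 tested was not called. Adrenal markers summed to at most 0.609 FPKM in Ctrl, 1.93 in Case and 7.67 in Dapa, and 1 of 2 tested rose in Case (Hsd3b1, 1.72, q = 0.0404). In what measure these cell types bear on the levels of the 10 endothelial genes was not tested.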

How the data were processed

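Total RNA of whole kidneys was extracted, enriched for mRNA with oligo(dT) and sequenced from strand-specific libraries, 1 per mouse. Per the study's methods and the labels, the authors aligned reads to mm10 with HISAT2, counted them with Stringtie and converted normalized levels to FPKM. The deposited table holds counts and FPKM for each of 17 mice. The deposited FPKM followed the counts of the library within 0.0021% in genes with at least 200 counts, with no sign of a TMM factor. Of 22561 genes, 3 listed over 2 lines were left out.

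Groups came from the sample titles and genotype and treatment labels. Counts were tested with edgeR 4.0.16 (R 4.3.3; TMM, filterByExpr, quasi-likelihood test) on each pair of groups, with Benjamini-Hochberg adjustment over all genes tested. Ratios were tested by exact two-sided permutation over mice, and correlations by 100000 permutations within groups. The scripts were tested on simulated data. Alternatives were DESeq2 1.42.0, limma 3.58.1 on log2(FPKM + 1) or log2(FPKM + 0.1), edgeR's exact test, other scalings and filters, all groups in one fit, no mitochondrial genes, a term for the mismatching libraries and leaving out each mouse. Subsets of matching or mismatching libraries, a term for the 7 libraries that deviated by over 1%, and other denominators of the Ehd3 ratio were chosen after seeing the data.

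The endothelial genes and all lists were chosen with earlier results of these data known. Named genes were all 10 endothelial genes and, from each list in Case over Ctrl and Dapa over Case, up to 3 called genes with the largest absolute log2 fold change or, where none was called, up to 2 with the highest mean FPKM. All called pan-endothelial genes in Case over Ctrl were named, Podxl after its value was seen. Some results that these rules select are not reported here. The 6 adipocyte markers were too low to be tested. Gene positions are from the deposited table (mm10), overlaps from GENCODE annotation, and promoters from RefSeq (GRCm38.p6). No library pair of a group agreed within sampling noise. Depth per library was 13039535 to 17779635 counts, and the 10 genes held 64 (Nos3) to 2213 (Kdr) counts each.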

Additional observations from a re-analysis of the deposited data

Results flagged for a closer look

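Of 42 groups examined for a mouse apart from the rest of its group, 2 held one, and chance gives about 5% of groups. Eng in Dapa 9 was at 7.11 FPKM, with the nearest Dapa mouse at 10.5. Without Dapa 9 the log2 fold change of Eng in Dapa over Ctrl was 0.54 (q = 0.00933). The ratio Emcn/Cdh5 in Case 2 was 1.31, with the nearest Case mouse at 0.999.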

How the results depend on the processing

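No endothelial gene was called in Dapa over Case under any alternative run. The changes that follow all had q over 0.05 unless a call is named, and the cause was not tested. In Case over Ctrl, 1 of the 10 was called with DESeq2, edgeR's exact test and the term for the 8 libraries (Ehd3 in each). Over all genes, 751 were called with the term for the 8 libraries, 1219 with the term for 7, and 1002 to 2154 when a mouse was left out. Ctrl 1, Ctrl 2, Ctrl 3 and Ctrl 5 each lowered that count by over 1.5 times. The mice of Ctrl and Case share numbers, but same-numbered mice did not deviate together (correlations of -0.0675 to -0.0429), and a replicate block over these numbers gave 699 genes and none of the 10. In Dapa over Case, 208 genes were called with DESeq2, 129 with the exact test, 5 with all 3 groups in one fit, and 0 to 7 when a mouse was left out.

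In Dapa over Ctrl, the number of the 10 called was 3 with DESeq2, the exact test, either limma fit and the term for 7 libraries, 2 with upper quartile scaling, a minimum of 10 counts, all 3 groups in one fit and without mitochondrial genes, and 4 with the term for the 8 libraries. Eng and Cdh5 were called in each of these, with Pecam1 where 3 were and Pecam1 and Emcn where 4 were. It was 0 to 4 when a mouse was left out (0 without each of Ctrl 1, Ctrl 2, Ctrl 3, Dapa 10, Dapa 11 and Dapa 12, 4 without Dapa 7), 0 without the 3 mismatching Dapa libraries, where 1555 of all genes were called, and 6 within mismatching libraries.

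Directions changed as follows. In Case over Ctrl, Flt1 was at -0.0034 with DESeq2, -0.0012 with median ratio scaling and -0.0051 with all 3 groups in one fit. The term for the 8 libraries gave -0.015 for Pecam1, -0.22 for Flt1, -0.0058 for Tek and -0.17 for Emcn, and the term for 7 gave -0.048 for Flt1 and -0.10 for Emcn. With a mouse left out, Flt1 ran from -0.094 to 0.11 and Emcn from -0.078 to 0.13. In Dapa over Case, both terms gave -0.087 for Nos3 and -0.10 for Plvap, and matching libraries alone, in which Emcn and Pecam1 turned from 0.47 and 0.26, gave -0.14 for Pecam1, -0.16 for Cdh5, -0.18 for Flt1, -0.015 for Ehd3, -0.028 for Emcn, -0.21 for Nos3 and -0.31 for Plvap. With a mouse left out, Plvap ran from -0.11 to 0.11, Tek from -0.16 to 0.049 and Nos3 from -0.028 to 0.25. In Dapa over Ctrl without the 3 mismatching Dapa libraries, Kdr was at -0.059, Flt1 at -0.13 and Tek at -0.060, and within mismatching libraries Ehd3 was at 0.029.

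The Ehd3/Cdh5 ratio stayed below Ctrl in Case and Dapa, with exact permutation p under 0.05, under all alternatives run. Its difference between Dapa and Case, not called, ran from -0.035 to 0.14 when a mouse was left out, and was -0.013 with Pecam1 and -0.021 with Kdr in place of Cdh5. Without a mouse, the log2 difference of Emcn/Cdh5 ran from -0.35 to -0.18 in Case over Ctrl, from 0.23 to 0.37 in Dapa over Case and from -0.025 to 0.10 in Dapa over Ctrl, that of Plvap/Cdh5 from -0.21 to -0.13 in Dapa over Case, where it passed without Dapa 7 (exact permutation p = 0.0498), and that of Flt1/Kdr from -0.0090 to 0.12 in Dapa over Ctrl. Without the 3 mismatching Dapa libraries, Flt1/Kdr was at -0.043 and Emcn/Cdh5 at -0.094 in Dapa over Ctrl. The median correlation was 0.458 within matching libraries.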

Other observations

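In Dapa over Ctrl, activation and thrombosis genes of endothelium rose in 4 of 8 genes tested and fell in none, against 14.2% of all genes called higher, and the names were chosen after their values were seen. Mean FPKM in Ctrl, Case and Dapa was 0.0860, 0.240 and 0.352 for Vwf, 0.0247, 0.246 and 0.265 for the selectin Sele, 0.537, 1.18 and 1.21 for the endothelin gene Edn1, and 4.18, 5.82 and 7.22 for the endothelin receptor Ednrb. Sele had 0 to 18 counts per library. Such a rise was not particular to endothelial genes. Called higher were also 4 of 9 mural and mesangial, 4 of 7 distal and collecting duct, 5 of 5 red-cell and 3 of 8 podocyte markers, while 5 of 7 proximal tubule markers fell. In the same comparison angiopoietin 2, Angpt2, a ligand that competes at the receptor encoded by Tek, rose (log2 fold change 1.83, q = 0.00567) and angiopoietin 1, Angpt1, fell (-0.63, q = 0.00491). Of the 4 angiopoietin and Tie genes tested these were the 2 called, against 29.1% of all genes called in either direction. Values without the mismatching Dapa libraries are not given for them. The summed FPKM of the angiopoietin and Tie genes was 22.7, 22.9 and 18.4 in Dapa 7 to 9 and 30.3, 27.4 and 33.6 in Dapa 10 to 12.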
